A study of Mus musculus with 4 samples.

Results

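The integrin subunit genes, the laminin chain genes and Vcam1 were followed in mouse ureters that lacked fibroblast growth factor receptor genes in a mesenchymal lineage. Members were all non-control probes whose gene name in the scanner files is an integrin alpha or beta subunit (Itga or Itgb with digits or a single letter), a laminin chain (Lama, Lamb or Lamc with digits) or Vcam1. This gave 55 of the 39429 probes on the array, for 39 of 29875 gene names. They comprised 18 integrin alpha genes, 9 integrin beta genes, 11 laminin genes and Vcam1.

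The cDKO (conditional double knockout) embryos carried cre on one Tbx18 allele, Tbx18(cre/+), and floxed alleles on both copies of the receptor genes Fgfr1, Fgfr1(fl/fl), and Fgfr2, written Fgfr2(fl/fl). The control embryos were Fgfr1(fl/?) and Fgfr2(fl/?), with the second allele of each receptor gene unstated and no cre allele listed. Both groups were of the NMRI strain, were taken at E14.5 (embryonic day) and carried floxed Fgfr1 and Fgfr2 alleles. Cre was driven from the Tbx18 locus, which encodes a transcription factor of mesenchymal cells around the ureteric epithelium, and the whole ureter was profiled, so cells outside that lineage were in every extract. One copy of Tbx18 carried cre in cDKO embryos alone, and so the cre allele and the receptor deletions cannot be told apart. RNA of cDKO and control ureters was hybridised together on each of 4 two-colour arrays (replicates 1 to 4). The cDKO RNA was labelled with Cy5 on replicates 1 and 3 and with Cy3 on replicates 2 and 4. Replicates 1 and 2 lay on one slide (slide 1) and replicates 3 and 4 on another (slide 2). Both channels were labelled female on replicates 1 and 4 and male on replicates 2 and 3. No label says which animals or pools gave a replicate, and the p-values therefore rest on the scatter of 4 extract pairs, which may in part be technical.

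Integrins are receptors of an alpha and a beta subunit that tie cells to the extracellular matrix or to other cells. Laminins are trimers of an alpha, a beta and a gamma chain and form the network of basement membranes, the sheets beneath epithelia and around vessels and muscle cells. VCAM1 is an immunoglobulin-type adhesion molecule of the cell surface, and its integrin receptors are alpha4 beta1, alpha4 beta7 and alpha9 beta1. In the embryonic ureter the epithelium, from which the urothelium forms, sits on a basement membrane that separates it from the mesenchyme.

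Itga4 and Vcam1 are the members on which the results below turn, and each was read by a pair of probes whose targets lie apart in the transcript. Their sequences, as listed in the scanner files, are printed in the sense direction, with coordinates of mouse build mm9. The upstream Itga4 probe (chr2:79153985-79155115, plus strand) matches 60 bases that are spread over 1131 bases of the genome, so it crosses at least 1 intron. The other Itga4 probe (chr2:79173193-79173252, plus strand) is the 3′-most, and its first 30 bases are shown. The upstream Vcam1 probe (chr3:115828953-115829012, minus strand) is shown whole, and the 3′-most Vcam1 probe (chr3:115813216-115813275, minus strand) by its first 30 bases.
Itga4, upstream: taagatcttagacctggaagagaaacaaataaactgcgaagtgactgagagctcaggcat
Itga4, 3′-most: gtgtgtggaatgcattataaagatctaaca
Vcam1, upstream: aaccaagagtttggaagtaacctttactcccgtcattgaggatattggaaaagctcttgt
Vcam1, 3′-most: tatatttttataggcaaatggtaaagaggt

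The median spot signal per array lay between 138.7 and 383.4 in cDKO channels and between 169 and 417.3 in control channels, and 66.1% to 71.8% of cDKO spots and 64.9% to 72.6% of control spots were well above background. No spot was saturated. Of the 39 member genes, 33 were measured, that is, had a probe well above background on all 4 arrays in cDKO or in control channels. The genes that did not reach that limit were Itga2b, Itgad, Itgae, Itgax, Itgb2l and Itgb8, of which the first 4 and Itgb2l are known from platelets or leukocytes. Itga2b was well above background on 0 cDKO and 2 control arrays, Itgb8 on 1 cDKO and 0 control arrays, and the remaining 4 on none. These genes were not well above background in either group, and no ratio is given for them. The targeted genes gave log2 ratios of cDKO over control of -0.40 ± 0.10 for Fgfr1 (standard error, SE, n = 4; adjusted p = 0.117) and 0.59 ± 0.07 for Fgfr2 (adjusted p = 0.0356). Where each deletion lies relative to these probes is unstated, so they do not check the genotype labels. Of markers of the labelled tissue, all 16 urothelial and all 13 ureteric mesenchyme markers were measured, as were 8 of 9 smooth muscle markers. So were 8 of 9 kidney and nephron markers, and being measured therefore does not tell ureter from kidney or check the tissue label.

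Of the 33 measured members, Itga4 rose and Vcam1 fell in cDKO ureters, and no other member passed the test (limma, Benjamini-Hochberg adjusted p under 0.05 over 19365 genes). Over all genes 0.852% were called, 0.553% as higher and 0.3% as lower. The laminin genes gave the next smallest p-values, among them Lama5 and Lamb3, with adjusted p-values of 0.0631 and 0.0669. The median log2 ratio was 0.07 over the 33 members and 0.01 over all genes, and the median size regardless of sign was 0.19 and 0.10. A ratio above 0 was found for 18 of the 33 members and for 10196 of the 19365 genes.

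At the 3′-most Itga4 probe, the log2 channel intensity was 12.57, 12.41, 13.03 and 12.85 in cDKO channels of replicates 1 to 4, and 11.49, 11.71, 11.98 and 11.76 in control channels. Every cDKO value lay above every control value. The log2 ratio of cDKO over control was 1.08, 0.70, 1.06 and 1.09 on replicates 1 to 4, and the fit gave 0.98 ± 0.09 (SE, n = 4), a 1.97-fold higher signal in cDKO ureters (adjusted p = 0.0213). Itga4 encodes the alpha4 subunit, which is known from leukocytes, the neural crest and embryonic mesenchyme. The upstream Itga4 probe was well above background on 4 cDKO arrays but on only 2 control arrays, and its ratios were 0.04, 0.21, 0.35 and 0.39 (0.25 ± 0.09, adjusted p over probes = 0.201). Both probes were higher in cDKO on all 4 arrays, but the upstream probe passed the filter through its cDKO channels alone. Its sign is therefore not a separate check of the 3′-most probe. The control signal of the upstream probe was at or near the background limit, so its ratio is not an exact measure and its size is not set against that of the 3′-most probe. The average of both, which carries the same limits, gave 0.62 ± 0.08 (adjusted p = 0.0348).

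At the 3′-most Vcam1 probe, the log2 channel intensity was 13.17, 13.24, 12.48 and 12.72 in cDKO channels and 13.92, 13.60, 13.53 and 13.66 in control channels. Every cDKO value lay below every control value. The log2 ratio was -0.75, -0.36, -1.05 and -0.94 on replicates 1 to 4, and the fit gave -0.78 ± 0.11 (SE, n = 4; adjusted p = 0.0466), a 1.71-fold lower signal in cDKO ureters. The upstream Vcam1 probe gave -0.65, -0.12, -0.86 and -0.28 (-0.48 ± 0.08, adjusted p over probes = 0.0608). The ratio was below 0 on all 4 arrays at both probes, and least so on replicate 2. The call of Vcam1 lay near the threshold: it was lost without replicate 1 (-0.85, adjusted p = 0.0993) and without replicate 3 (-0.70, adjusted p = 0.0621). It was also lost on slide 1 alone (-0.56, adjusted p = 0.0907) and on slide 2 alone (-0.99, adjusted p = 0.288). Itga4 stayed called without each replicate in turn and on slide 1 alone, and was not called on slide 2 alone (1.07, adjusted p = 0.281). With a sex term in the fit neither was called (adjusted p = 0.0638 for Itga4 and 0.108 for Vcam1). The sex labels follow the pattern of dye orientation by slide, so that term does not stand for sex alone.

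**Figure D1:**
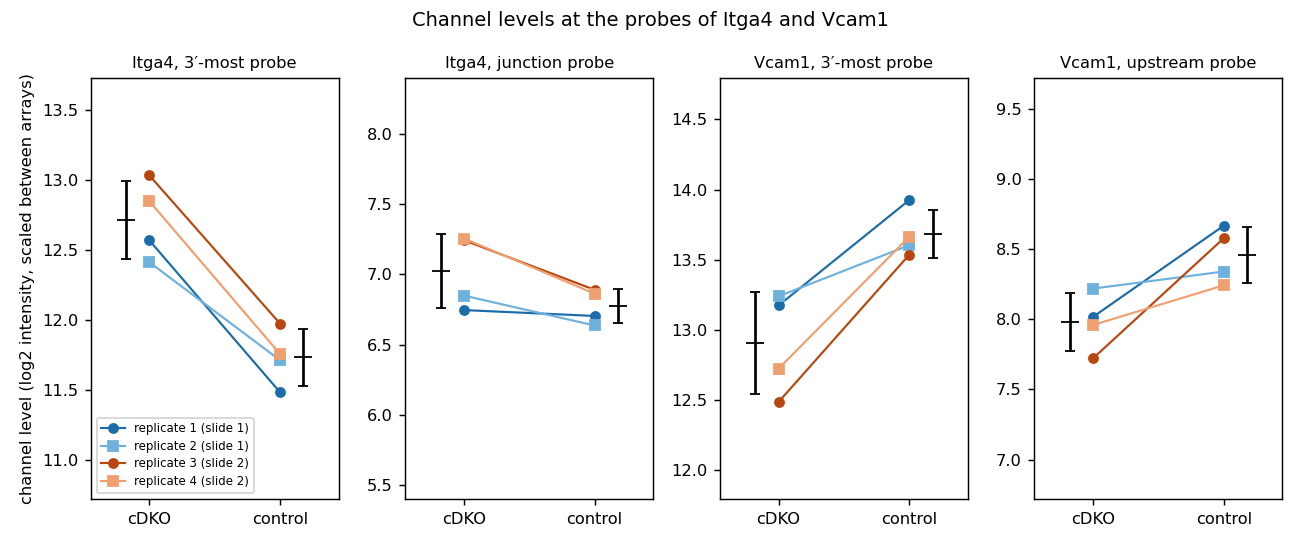
Channel levels (log2 intensity, scaled between arrays) of both Itga4 probes and both Vcam1 probes, with cDKO left and control right, 1 line per array and the mean ± SD (n = 4) beside the points. Each panel spans the same range of log2 units, and levels are to be compared within a panel. On every array cDKO is above control at both Itga4 probes and below control at both Vcam1 probes. The upstream Itga4 probe was well above background on only 2 control arrays and passed the filter through its cDKO channels alone.

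Vcam1 is known from endothelium and mesenchyme, and Itga4 from leukocytes, the neural crest and mesenchyme, so markers of such cells were set beside them. Of 12 endothelial markers, all measured, 10 lay below 0 with a median log2 ratio of -0.29, and Emcn, a sialomucin of endothelial cells, fell (-0.58 ± 0.07, adjusted p = 0.0363). Their summed intensity was 74281 to 89479 in cDKO and 87610 to 109037 in control channels, and was lower in cDKO on 3 of 4 arrays. Of 14 leukocyte markers, all measured, 13 lay below 0 (median -0.28), and Fcer1g, a signalling subunit of Fc receptors, fell (-0.52 ± 0.08, adjusted p = 0.049). Their summed intensity was 18211 to 23436 in cDKO and 23773 to 28886 in control channels and was lower in cDKO on all 4 arrays. Of 10 neural crest, glial and neuronal markers, 8 were measured, 5 of them below 0 with a median of -0.02, and none was called. Their summed intensity was 80158 to 98658 in cDKO and 72814 to 103215 in control channels. Of 13 ureteric mesenchyme markers, all measured, 10 lay above 0 with a median of 0.26, and none was called. The Itga4 ratio lay above 0, on the side of most mesenchyme markers. The Vcam1 ratio lay below 0, on the side of most endothelial and leukocyte markers and opposite to most mesenchyme markers. The part of cell numbers in either result was not tested, and in RNA of whole ureters fewer cells of a type and less RNA per cell cannot be told apart.

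The partner subunits of the VCAM1 receptors did not pass the test. Itga9, the alpha9 subunit, gave log2 ratios of -0.39, -0.29, -0.04 and 0.52 on replicates 1 to 4 (-0.05 ± 0.14, adjusted p = 0.881), with a 95% interval of -0.39 to 0.29. Its sign differed between the slides, with means of -0.34 on slide 1 and 0.24 on slide 2 (adjusted p of the slide difference = 0.167). Itgb1, the beta1 subunit shared by most matrix-binding integrins, gave -0.22, -0.39, -0.07 and -0.21 (-0.22 ± 0.08, adjusted p = 0.198), below 0 on all 4 arrays. Its log2 channel intensity was 12.55, 12.44, 12.43 and 12.40 in cDKO and 12.77, 12.83, 12.49 and 12.62 in control channels, and the groups overlapped. The second Itgb1 probe gave -0.03 ± 0.07. Itgb7, the beta7 subunit of lymphoid cells, gave -0.24, 0.05, -0.49 and -0.29 (-0.24 ± 0.09, adjusted p = 0.222).

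Among the other integrin alpha genes, Itga8 had the most even ratio. Itga8 encodes the alpha8 subunit, which pairs with beta1 as the receptor of nephronectin and is known from kidney mesenchyme and smooth muscle. Its log2 channel intensity was 12.89, 12.83, 12.90 and 13.00 in cDKO and 13.18, 13.19, 13.13 and 13.29 in control channels, with every cDKO value below every control value. The ratios were -0.29, -0.36, -0.23 and -0.29 (-0.29 ± 0.07, adjusted p = 0.112), which did not pass the test. Itga11, a collagen receptor subunit of fibroblasts, gave 0.79, 0.37, 0.02 and 0.30 (0.37 ± 0.13, adjusted p = 0.194). Itga7, a laminin receptor subunit of muscle, gave 0.24, 0.14, 0.32 and 0.09 (0.19 ± 0.07, adjusted p = 0.214). Itga6, a laminin receptor subunit of epithelia, gave 0.13, 0.13, 0.51 and 0.14 (0.23 ± 0.09, adjusted p = 0.231), while its second probe lay on the other side of 0 (-0.03 ± 0.13).

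The integrin genes were also taken by the ligand they bind. The laminin receptor genes Itga3, Itga6, Itga7 and Itgb4 had ratios above 0, between 0.05 and 0.23, and none was called (lowest adjusted p = 0.214). Of these, Itga3 and Itgb4 lay below 0 on replicate 3 (-0.06 and -0.38). Itgb1, the beta1 subunit shared by most matrix-binding integrins, was left out of these ligand groups and lay below 0 (-0.22). The 4 collagen receptor genes (Itga1, Itga2, Itga10 and Itga11) lay between -0.14 and 0.37 on both sides of 0, with Itga11 at 0.37, Itga10 at 0.07, Itga1 at -0.13 and Itga2 at -0.14. The 6 measured genes of receptors of the RGD motif (Itga5, Itga8, Itgav, Itgb3, Itgb5 and Itgb6) lay between -0.29 and 0.09, with 2 above 0, at their brightest probes. The second probes of Itgb3 and Itgb6 lay above 0 (0.01 and 0.03). Each was well above background on 4 cDKO but only 3 control arrays. Of 8 genes of leukocyte integrins, 4 were measured (Itgal, Itgam, Itgb2 and Itgb7), and at their brightest probes they lay between -0.24 and 0.11. Itgal and Itgam lay above 0 at that probe, but their other kept probes lay below 0 (-0.08 for Itgal, -0.07 and -0.0025 for Itgam). Among 13 member genes with several kept probes, 6 had probes on both sides of 0. Of 5 measured platelet markers (not Gp1ba, Gp5 or Gp6), 4 lay below 0 and Pf4, a platelet chemokine, fell (-0.63 ± 0.08, adjusted p = 0.0356). The platelet integrin gene Itgb3 gave -0.15 ± 0.09 (adjusted p = 0.396) at its brightest probe and 0.01 ± 0.08 at the other. Itgal was above 0 on the arrays with cDKO in Cy5 (0.25 and 0.54) and below 0 on those with cDKO in Cy3 (-0.20 and -0.20). In all, 11 of 21 measured integrin genes lay above 0 and 10 below, with a median of 0.05, against 10196 of 19365 above 0 over all genes.

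All 11 laminin genes were measured, 7 with a ratio above 0 and 4 below, with a median log2 ratio of 0.31. None passed the test, and the lowest adjusted p was 0.0631. Before adjustment 9 of the 11 had a p under 0.05, and 8 had the same sign on all 4 arrays, 5 above 0 and 3 below. Over all 33 members these counts were 17 (51.5%) and 15 (45.5%), and over all genes 19.6% had an unadjusted p under 0.05 and 25.2% the same sign on all arrays. These counts describe the members on the same 4 arrays and are not independent of each other.

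**Figure D2:**
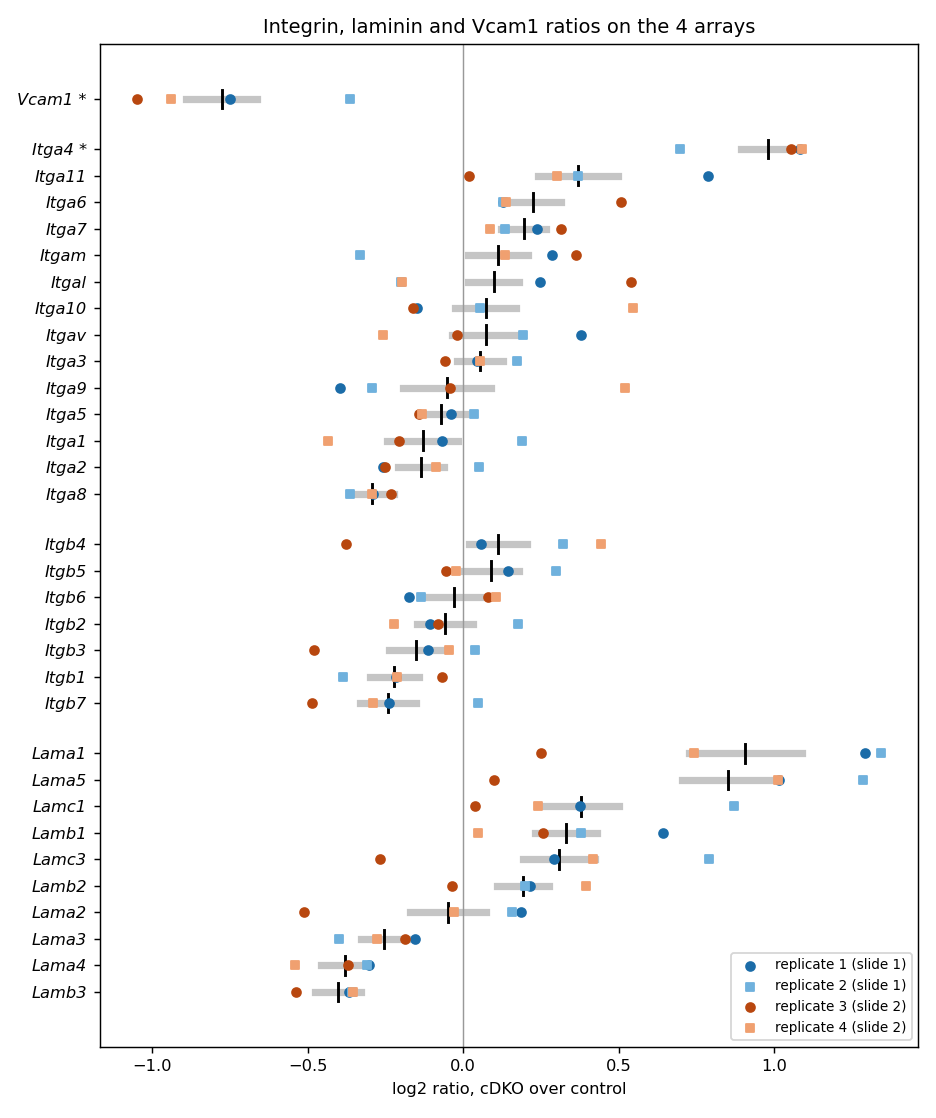
Log2 ratio of cDKO over control for 32 measured members on each of the 4 arrays, in blocks of Vcam1, integrin alpha, integrin beta and laminin genes. Points are arrays, black ticks the fitted ratio and grey bars ± 1 SE; a star marks an adjusted p under 0.05. Itga4 and Vcam1 stand at the ends of the range, and Lama1 and Lama5 reach as far right as Itga4 with replicate 3 nearer to 0.

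The chains of the laminins of embryonic and general epithelial basement membranes lay above 0. Lama1, the alpha1 chain of early embryonic and kidney basement membranes, had log2 channel intensities of 13.19, 13.27, 12.79 and 13.08 in cDKO and 11.90, 11.92, 12.54 and 12.34 in control channels. Every cDKO value lay above every control value. Its ratios were 1.29, 1.34, 0.25 and 0.74 (0.91 ± 0.18, adjusted p = 0.0781). Lama5, the alpha5 chain found in most epithelial basement membranes, had intensities of 14.18, 14.48, 14.28 and 14.32 in cDKO and 13.16, 13.19, 14.18 and 13.31 in control channels, and the control channel of replicate 3 came level with the cDKO values. Its ratios were 1.02, 1.29, 0.10 and 1.01 (0.85 ± 0.15, adjusted p = 0.0631). Without replicate 3 both genes were called, Lama1 at 1.17 (adjusted p = 0.0199) and Lama5 at 1.08 (adjusted p = 0.0157). They were called on slide 1 alone as well, at 1.32 and 1.15.

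The beta1 and gamma1 chains, which join alpha1, alpha4 or alpha5 in a trimer, had the larger ratios on slide 1. Lamb1 gave 0.64, 0.38, 0.26 and 0.05 (0.33 ± 0.10, adjusted p = 0.159), and Lamc1 gave 0.38, 0.87, 0.04 and 0.24 (0.38 ± 0.12, adjusted p = 0.172). Both were above 0 on all 4 arrays. The ratio of Lamb1 averaged 0.51 on slide 1 and 0.15 on slide 2, and that of Lamc1 averaged 0.62 and 0.14. Lama4, the alpha4 chain of vessel and mesenchymal basement membranes, lay on the other side, with -0.30, -0.31, -0.37 and -0.54 (-0.38 ± 0.08, adjusted p = 0.0842). It ran the same way as the endothelial markers given above, whose part in it was not tested.

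The alpha3 and beta3 chains, which belong to a laminin that anchors epithelia through integrin alpha6 beta4, lay below 0. Lamb3, the beta3 chain, had log2 channel intensities of 9.87, 10.07, 10.32 and 10.45 in cDKO and 10.24, 10.42, 10.86 and 10.81 in control channels, and its ratios were -0.37, -0.36, -0.54 and -0.35 (-0.40 ± 0.07, adjusted p = 0.0669), with the cDKO channel the lower on each array and levels of different arrays overlapping. Lama3, the alpha3 chain, gave -0.15, -0.40, -0.19 and -0.28 (-0.25 ± 0.07, adjusted p = 0.146), and its second probe gave -0.35 ± 0.07. Among 16 urothelial markers, 6 lay above 0 and 10 below (median -0.03), and Upk1b, a uroplakin of the urothelial surface, fell (-1.43 ± 0.20, adjusted p = 0.0401). Their summed intensity was 222278 to 297757 in cDKO and 238876 to 271583 in control channels, and its part in these ratios was not tested.

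The other laminin chains reported here did not keep the same sign on all arrays. Lamb2, a beta chain of muscle, vessel and glomerular basement membranes, gave 0.22, 0.20, -0.04 and 0.40 (0.19 ± 0.08, adjusted p = 0.268). Lamc3 gave 0.29, 0.79, -0.27 and 0.42 (0.31 ± 0.12, adjusted p = 0.222). Lama2, the alpha2 chain of muscle and nerve, gave 0.19, 0.16, -0.51 and -0.03 (-0.05 ± 0.12, adjusted p = 0.872), and its second probe gave 0.05 ± 0.10. On replicate 3 each of these 3 genes was below 0.

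The laminin genes differed in size between the slides, with a median ratio of 0.48 on slide 1 and 0.14 on slide 2. The difference was tested gene by gene with the slide as a term, and 0 of 33 members passed, against 0.893% of all genes. The lowest adjusted p was 0.0628, for Lama1, whose ratio averaged 1.32 on slide 1 and 0.50 on slide 2. Before adjustment 10 members had a p under 0.05 for the slide difference, 6 of them laminins, and 2767 of the 19365 genes did. Per the file headers the slides also differed in scan date, and the part of slide or scan in these differences was not tested. For the difference of the cDKO effect between female-labelled and male-labelled arrays, 0 of 33 members passed and 0% of all genes did in limma. At an unadjusted p under 0.05 there were 207 genes, with no member among them. The sex labels follow the pattern of dye orientation by slide, so an effect of sex cannot be told apart from that pattern. Each of the slide and sex tests left 1 residual degree of freedom.

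**Figure D3:**
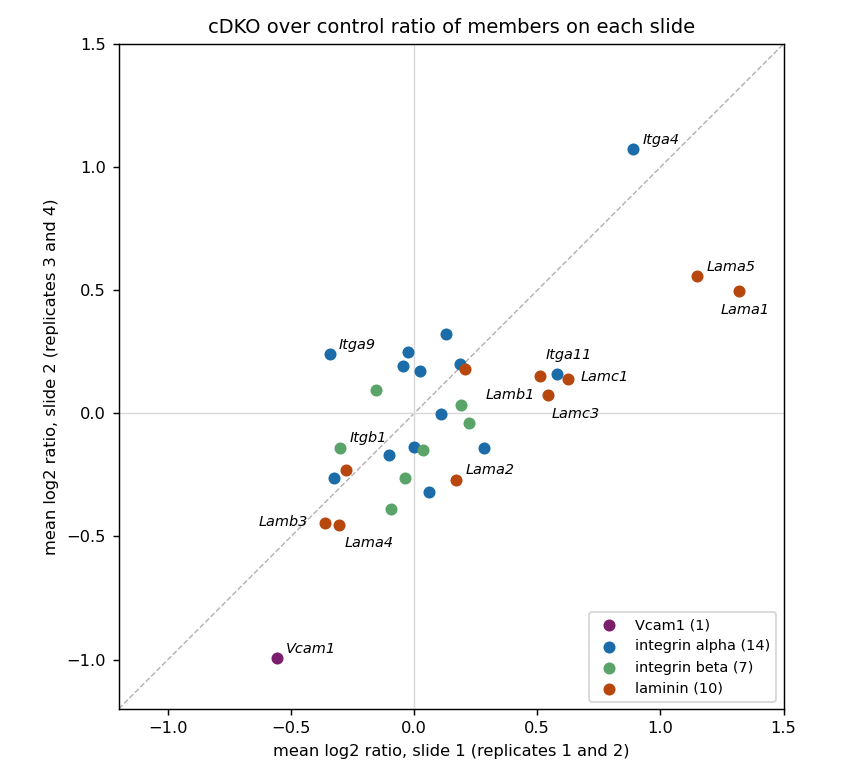
Mean log2 ratio of cDKO over control on slide 1 (x axis, replicates 1 and 2) against slide 2 (y axis, replicates 3 and 4) for 32 measured members; the dashed line marks equal ratios. Itga4 (0.89 and 1.07) and Vcam1 (-0.56 and -0.99) have ratios on the same side of 0 on both slides and larger on slide 2, while Lama1 (1.32 and 0.50) and Lama5 (1.15 and 0.56) lie to the right of the line.

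Genes that act with these receptors and laminins were counted from 4 lists, and no gene in them was called. Of 15 measured basement membrane genes that are not laminins, 14 had a ratio above 0, with a median of 0.24 (0.45 on slide 1 and 0.11 on slide 2). Over all genes 10196 of 19365 lay above 0. Col18a1, a basement membrane collagen, gave 0.69, 0.82, 0.29 and 0.54 (0.58 ± 0.10, adjusted p = 0.0587), and Agrn, a heparan sulfate proteoglycan that binds laminins, gave 0.92, 0.29, 0.37 and 0.51 (0.52 ± 0.11, adjusted p = 0.0863). Of 21 measured adaptors that link integrins to actin, 16 lay above 0, with a median of 0.06. The smallest p-values there were those of Bcar1, a scaffold of focal adhesions (0.33 ± 0.09, adjusted p = 0.139), and Itgb1bp1, which binds the beta1 tail (-0.30 ± 0.09, adjusted p = 0.158).

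Of 21 measured integrin ligands other than laminins, collagens and Vcam1, 9 lay above 0 and 12 below, with a median of -0.07. Ecm1, a secreted matrix protein, gave 0.41, 1.22, 0.11 and 0.78 (0.63 ± 0.10, adjusted p = 0.0532), and Thbs1, the matricellular protein thrombospondin, gave 0.65, 0.53, 0.28 and 0.58 (0.51 ± 0.09, adjusted p = 0.0616). The lowest ratios were those of Madcam1 (-0.66 ± 0.13, adjusted p = 0.0761), Icam2 (-0.43 ± 0.08, adjusted p = 0.0673) and Postn (-0.42 ± 0.07, adjusted p = 0.0627). Of the hemidesmosome genes, which tie integrin alpha6 beta4 to keratin filaments, 3 of 4 were measured. Plec, a cytolinker, gave 0.30 ± 0.13 (adjusted p = 0.257), Cd151, a tetraspanin, gave -0.13 ± 0.08 (adjusted p = 0.376), and Col17a1 was not above the filter.

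Markers of the tissue compartments were set beside the laminins. Of 13 ureteric mesenchyme markers 10 lay above 0 (median 0.26), led by Foxf1 (0.60 ± 0.12, adjusted p = 0.0782) and Sox9 (0.66 ± 0.15, adjusted p = 0.0996), both transcription factor genes. The 3 below 0 were Osr1 (-0.28 ± 0.09, adjusted p = 0.171), Tcf21 (-0.27 ± 0.08, adjusted p = 0.138) and Pdgfra (-0.07 ± 0.08, adjusted p = 0.691). Summed intensity of the 13 mesenchyme markers was 558571 to 608786 in cDKO and 405573 to 600932 in control channels. Of 8 measured smooth muscle markers 7 lay above 0 (median 0.05), and of 8 measured kidney and nephron markers all 8 did (median 0.15), with no gene called in either list. Of 12 erythroid markers 10 lay below 0, and the embryonic globin genes Hbb-bh1 (-0.54 ± 0.07, adjusted p = 0.0385) and Hba-x (-0.66 ± 0.09, adjusted p = 0.0425) fell. Of 4 measured mesothelial markers 3 lay below 0, and Msln, mesothelin, fell (-0.82 ± 0.09, adjusted p = 0.0282). Wt1 lay above 0 (0.26 ± 0.14, adjusted p = 0.354). Summed intensity of the 4 mesothelial markers was 8798 to 14158 in cDKO and 8102 to 12170 in control channels. This sum was lower in cDKO on 2 of 4 arrays. Summed intensity of the nephron markers was 19239 to 22673 in cDKO and 18206 to 21804 in control channels. Their part in the laminin ratios was not tested.

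**Figure D4:**
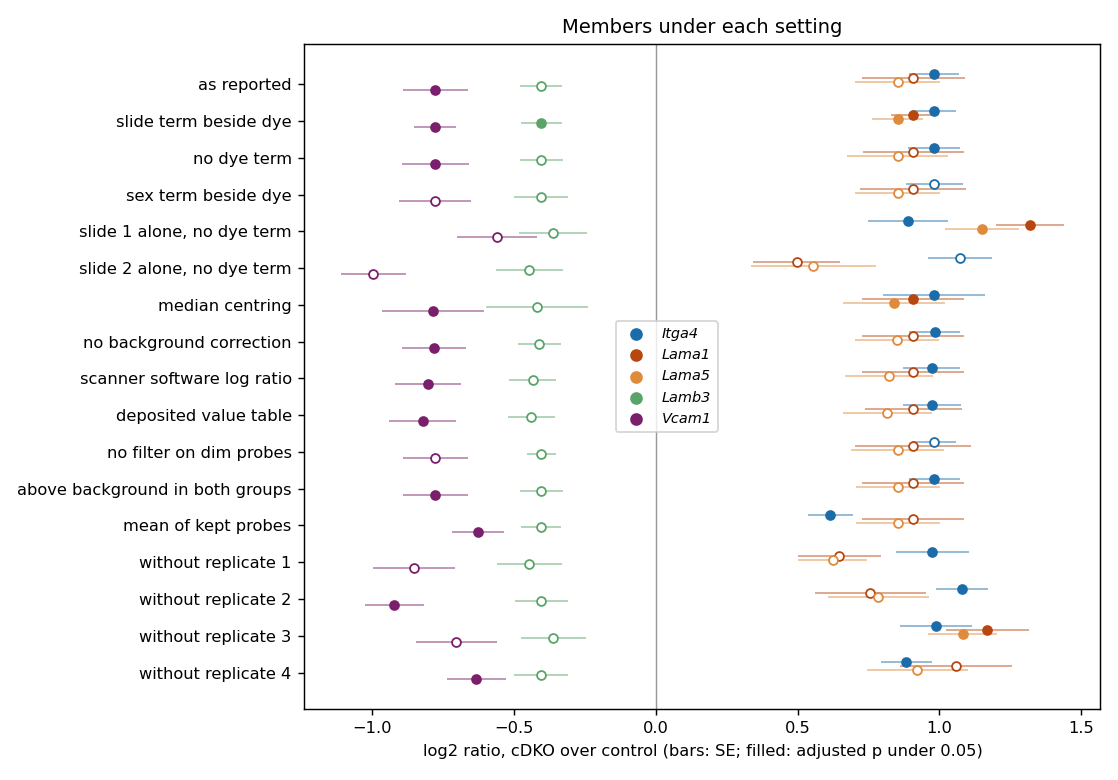
Log2 ratio of cDKO over control (± SE) of 5 members under each processing or fitting alternative; filled points have an adjusted p under 0.05. Itga4 lies between 0.62 and 1.08 and Vcam1 between -0.99 and -0.56 across all settings, and Lama1 and Lama5 become filled with a slide term, on slide 1 alone, with median centring and without replicate 3.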

How the data were processed

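Total RNA of dissected ureters was amplified, dye-labelled and hybridised to 4 Agilent arrays, per the labels' protocols, and quantified with Agilent Feature Extraction (version 10.7.3.1), per the submitters' processing notes. Per the file headers, the scanner files hold mean spot intensity and median background intensity, not normalized, and the scanner software's log10 ratios. The authors' deposited value table holds a signed fold per probe, with its centring unstated. It correlated with the cDKO over control ratio at 0.945, 0.935, 0.909 and 0.91 on replicates 1 to 4, so a positive fold was taken as higher in cDKO; each column's median was 1.

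Background was corrected with normexp (offset 50), and ratios were loess-normalized within arrays (span 0.3; control and outlier-marked spots at weight 0) and averaged over unmarked spots. Probes were kept with 3 or more of 4 spots well above background on every array in cDKO or in control channels (25591 probes), and the brightest kept probe stood for a gene. Ratios were fitted with limma 3.58.1 in R 4.3.3 (dye and genotype terms, two-sided, Benjamini-Hochberg over 19365 genes), with 2 residual degrees of freedom beside 4.53 of the prior. Added terms tested slide and sex differences. Channel levels were quantile-scaled between arrays; the number of arrays limits their precision. The fit was also run on simulated data with independent errors and no slide effect. That run cannot check the fit where slides differ. The alternatives changed the terms, slides, normalization, background, source values (scanner log10 ratios or the deposited table), filter, probe choice and replicates.

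Given array by array are called members, Vcam1 and its receptor subunits, laminins, and members with an unadjusted p under 0.05 and 1 sign on all arrays. Of other lists, called genes (up to 4) or the 2 with the smallest p are named. Genes of the opposite sign were added for integrin ligands, ureteric mesenchyme and mesothelium. One member gene is counted but not reported here. Members and lists were chosen with earlier results of these data known.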

Additional observations from a re-analysis of the deposited data

Results flagged for a closer look

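In 3 of the 33 measured members, 1 array stood apart from the other 3 by Dixon's ratio, the gap to the nearest array over the whole range, at its 95% limit for 4 arrays. Chance alone passes that limit in about 1 of 20 groups. Itga4 had a Dixon ratio of 0.916, since replicate 2 gave a log2 ratio of 0.70 and the others 1.06 to 1.09. Lamb3 had a Dixon ratio of 0.921, with replicate 3 at -0.54 and the others between -0.37 and -0.35. Itga6 had a Dixon ratio of 0.979, with replicate 3 at 0.51 and the others between 0.13 and 0.14.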

How the results depend on the processing

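The number of calls moved widely between settings. The fit as reported left 2 residual degrees of freedom. Fits with a slide or sex term, on 1 slide alone or without 1 replicate left 1. Of the members, 12 were called with a slide term (8 higher and 4 lower; over all genes 2418, against 165 as reported), 4 with median centring, where the fit used the same error, 0.179, for every gene, and 0 with a sex term, on slide 2 alone and without the filter (over all genes 2, 0 and 1, and 2689, 1346 and 4836 at an unadjusted p under 0.05). Leaving out 1 replicate gave 1 to 3 called members and 1 to 15 called genes of the context lists. Of the 160 measured context genes, 7 were called as reported, 69 with a slide term, 14 without a dye term, 20 on slide 1 alone, and 0 with a sex term, on slide 2 alone and without the filter. Over all genes 258 were called without a dye term, 551 on slide 1 alone, 255 with median centring and between 34 and 403 without 1 replicate. Itga4 kept its direction in all 16 alternatives and its call in 13; it was not called with a sex term (0.98, adjusted p = 0.0638), on slide 2 alone (1.07, 0.281) or without the filter (0.98, 0.0833). Vcam1 kept its direction in all 16 and its call in 10; it was not called with a sex term (-0.78, adjusted p = 0.108), on slide 1 (-0.56, 0.0907) or slide 2 alone (-0.99, 0.288), without the filter (-0.78, 0.125), or without replicate 1 or 3. Without 1 replicate the ratio ran from 0.88 to 1.08 for Itga4 and from -0.92 to -0.63 for Vcam1. Lama2 turned positive on slide 1 (0.17), with the mean of its probes (0.0021) and without replicate 3, and Itga9 on slide 2 (0.24) and without replicate 1 or 2; without 1 replicate they ran from -0.22 to 0.13 and from -0.25 to 0.15. The cause of these changes was not tested, except that the unfiltered test covers 29875 genes. No alternative moved the median of all genes by over 0.1. The ratios within arrays already pair a cDKO with a control extract, so no further block on the replicate was fitted.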
